A study of Mus musculus with 2 samples.

Results

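The replication-dependent histone genes of the mouse supply most of the histone protein that is needed when DNA is copied. They were taken here as the protein-coding genes of the GENCODE M21 annotation (mm10) whose symbols begin with Hist1h, Hist2h, Hist3h or Hist4h. This rule gave 67 of 21842 protein-coding genes, namely 6 linker histone H1 genes, 18 H2A genes, 18 H2B genes, 12 H3 genes and 13 H4 genes. They lie in 4 clusters: 54 genes of Hist1 on chromosome 13, 10 of Hist2 on chromosome 3, 2 of Hist3 on chromosome 11 and 1 of Hist4 on chromosome 6. Chromatin accessibility was measured by DNase-seq, in which the nuclease DNase I cuts open DNA in nuclei, in the gastrocnemius (calf) muscle of adult male B6CASTF1/J mice aged 18-20 months. These mice are F1 hybrids of the strains C57BL/6J and CAST/EiJ, and the deposited calls do not separate the parental alleles. There were 2 biological replicates from different biosamples that carry the same donor label, so their spread may be technical. There was 1 group and no contrast, and no test between conditions was possible.

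Replication-dependent histone genes are small, lack introns as a rule and are transcribed mainly in S phase. Their mRNAs end in a short stem-loop in place of a poly(A) tail, which is bound by SLBP and cut with the help of the U7 snRNP. Transcription depends on NPAT, which gathers with the genes in the histone locus body, and on factors that differ by histone type, such as HINFP at H4 genes and POU2F1 at H2B genes. H2A and H2B genes often stand head to head and share 1 promoter region. Replacement histones, by contrast, are made outside S phase and from polyadenylated mRNAs. Adult muscle fibres no longer divide, and the tissue also holds dividing or resting cells of other types.

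The stem-loop gave a check of the gene set that used no DNase data. It was found in or just past the annotated mRNA of 65 of the 67 members (97%), against 367 of 21829 protein-coding genes (1.68%) searched in the same way. No match was found for Hist1h2an and Hist2h2be. The first 6 bases of the stem separated H4 from the other types: 52 members of the types H1, H2A, H2B and H3 began with one form, while 11 H4 members began with another and 2 H4 members with still another. One example of each form is shown from the reference genome (GRCm38.p6, the same build as mm10), with the 6 bases of each arm of the stem in capitals and the loop of 4 bases in lower case.
Hist1h1a (chr13:23764392-23764407, plus strand): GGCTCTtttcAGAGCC
Hist1h4a (chr13:23760800-23760815, minus strand): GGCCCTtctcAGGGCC
Hist1h4b (chr13:23757366-23757381, plus strand): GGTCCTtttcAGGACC

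The H4 promoters are shown first because the widest range of signal was found among them. The core of the H4 element called site II, GGTCCG on either strand, was present in the 300 bases around the start site (250 before, 50 after) of 12 of 13 H4 genes (92.3%), against 10.5% of the corresponding windows of all protein-coding genes. The core is in capitals, with 30 bases before it and at most 34 after it up to the annotated start. The first 6 genes had the core in a DNase footprint in both replicates. The remaining 6 did not. Here and below, a motif counted as in a footprint when a footprint overlapped at least 1 of its bases. A footprint is a short run of bases within open chromatin that is cut less than its surroundings.
Hist1h4c (chr13:23698465-23698534, minus strand): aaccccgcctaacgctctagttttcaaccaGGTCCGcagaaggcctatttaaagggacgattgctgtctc
Hist4h4 (chr6:136804424-136804493, minus strand): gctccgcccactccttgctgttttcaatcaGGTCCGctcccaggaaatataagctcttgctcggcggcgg
Hist2h4 (chr3:96263340-96263409, minus strand): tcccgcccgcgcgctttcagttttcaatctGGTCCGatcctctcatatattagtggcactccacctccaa
Hist1h4d (chr13:23581491-23581560, plus strand): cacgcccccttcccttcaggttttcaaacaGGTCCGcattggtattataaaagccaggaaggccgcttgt
Hist1h4h (chr13:23531009-23531049, plus strand): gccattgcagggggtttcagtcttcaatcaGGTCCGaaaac
Hist1h4i (chr13:22041369-22041438, minus strand): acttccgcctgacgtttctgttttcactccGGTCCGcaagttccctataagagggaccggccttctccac
Hist1h4f (chr13:23551675-23551744, minus strand): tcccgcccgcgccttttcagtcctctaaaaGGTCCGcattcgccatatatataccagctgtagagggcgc
Hist1h4j (chr13:21734986-21735055, plus strand): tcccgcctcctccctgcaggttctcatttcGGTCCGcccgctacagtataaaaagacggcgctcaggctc
Hist1h4b (chr13:23756913-23756982, plus strand): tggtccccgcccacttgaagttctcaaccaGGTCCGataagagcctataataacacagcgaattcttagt
Hist1h4k (chr13:21750546-21750615, minus strand): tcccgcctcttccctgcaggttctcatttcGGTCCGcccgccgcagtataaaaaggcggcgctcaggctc
Hist1h4m (chr13:21811669-21811738, plus strand): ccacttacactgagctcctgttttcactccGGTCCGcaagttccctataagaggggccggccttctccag
Hist1h4n (chr13:21832204-21832273, minus strand): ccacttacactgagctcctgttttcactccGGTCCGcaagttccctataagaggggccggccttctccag

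The promoter of Hist1h4a was the exception among H4 genes and held no GGTCCG. It held TGACGTCA, the cyclic AMP response element (CRE), at 2 places and the E2F motif TTTCCCGC at 4, which are in capitals.
Hist1h4a (chr13:23761266-23761455, minus strand): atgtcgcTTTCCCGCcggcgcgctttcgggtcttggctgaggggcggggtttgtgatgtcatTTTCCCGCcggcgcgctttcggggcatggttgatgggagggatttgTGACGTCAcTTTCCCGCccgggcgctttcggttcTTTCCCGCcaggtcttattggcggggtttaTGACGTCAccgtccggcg

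The divergent H2A/H2B promoters are shown because each is read in both directions. The sequence between the annotated start sites is given on the plus strand for the pair with the highest signal, a pair with an octamer, and the pair with the lowest signal. Capitals mark CCAAT (bound by NF-Y), TATAAA, the octamer ATTTGCAT (bound by POU2F1) and TGACGTCA, on either strand.
Hist1h2ag/Hist1h2bj (chr13:22042945-22043213, plus strand): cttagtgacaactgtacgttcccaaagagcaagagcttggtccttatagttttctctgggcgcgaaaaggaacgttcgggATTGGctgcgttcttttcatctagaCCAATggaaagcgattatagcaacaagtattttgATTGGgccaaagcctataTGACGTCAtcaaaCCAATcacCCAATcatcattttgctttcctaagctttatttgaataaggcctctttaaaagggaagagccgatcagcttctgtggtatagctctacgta
Hist1h2ac/Hist1h2bc (chr13:23683949-23684198, plus strand): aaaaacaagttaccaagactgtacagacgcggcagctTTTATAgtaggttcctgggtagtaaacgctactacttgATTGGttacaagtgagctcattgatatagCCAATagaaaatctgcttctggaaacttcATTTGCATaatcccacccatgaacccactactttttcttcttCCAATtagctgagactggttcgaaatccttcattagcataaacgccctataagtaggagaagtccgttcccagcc
Hist1h2ak/Hist1h2bn (chr13:21753828-21754122, plus strand): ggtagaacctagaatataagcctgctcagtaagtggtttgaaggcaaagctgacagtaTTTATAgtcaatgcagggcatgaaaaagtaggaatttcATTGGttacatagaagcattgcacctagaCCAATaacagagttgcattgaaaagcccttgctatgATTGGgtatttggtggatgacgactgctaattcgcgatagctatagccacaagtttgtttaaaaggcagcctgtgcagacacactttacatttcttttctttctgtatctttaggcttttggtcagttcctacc

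Of the H1 promoters, 2 somatic ones with a peak and the testis-type one without a peak are shown. Capitals mark the H1 box AAACACA, named after these genes, as well as the CCAAT and the TATA box.
Hist1h1c (chr13:23738678-23738807, plus strand): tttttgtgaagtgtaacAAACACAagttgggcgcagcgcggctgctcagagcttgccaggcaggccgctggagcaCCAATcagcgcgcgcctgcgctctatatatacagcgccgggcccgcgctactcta
Hist1h1e (chr13:23622559-23622688, minus strand): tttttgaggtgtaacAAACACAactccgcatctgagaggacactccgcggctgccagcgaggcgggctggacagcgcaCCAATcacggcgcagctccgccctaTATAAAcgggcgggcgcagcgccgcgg
Hist1h1t (chr13:23695684-23695813, plus strand): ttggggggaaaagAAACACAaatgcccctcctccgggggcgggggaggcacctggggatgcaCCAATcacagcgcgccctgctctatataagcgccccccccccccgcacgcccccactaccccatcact

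A member was counted as having a promoter peak when a peak of the authors' larger peak list overlapped the region within 1 kb of an annotated start site, and its promoter signal was the value of the strongest such peak. The deposited signal has no stated scale and the sequencing depth is unknown, so each value is also given as its percentile among all protein-coding genes with a promoter peak in the same replicate. The larger lists held 131398 peaks in replicate 1 and 91567 in replicate 2. The tissue label was checked on marker genes: 6 of 6 muscle markers had a promoter peak in both replicates, and 0 of 3 markers of liver, neurons and germ cells did. Markers of other cells of muscle tissue were also open, with 3 of 3 for fibroblasts, 3 of 3 for endothelium, 1 of 3 for satellite cells and 1 of 3 for macrophages. The 3 endothelial peaks were weak, at mean percentiles of 9.855 (Pecam1), 14.47 (Cdh5) and 16.29 (Kdr). Pax7 and Myf5 of satellite cells and Ptprc and Csf1r of macrophages had no peak. The proliferation markers Mki67, Top2a and Ccnb1 all had promoter peaks. Because 62.4% of all protein-coding genes had a peak in both replicates, so few open markers cannot show which cells were present or dividing. In bulk tissue, fewer cells with an open promoter and a less open promoter in each cell cannot be told apart.

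Most histone promoters were open in this largely non-dividing tissue, but with lower signal than the typical open promoter. A promoter peak was present at 56 of 67 members (83.6%) in replicate 1 and at the same 56 in replicate 2, against 65.6% and 63.5% of all protein-coding genes. Peaks in both replicates were thus found at 83.6% of members and 62.4% of all genes, and in neither replicate at 11 members and 33.2% of all genes. Histone promoters are rich in CpG, with a median observed-to-expected ratio of 0.757 for members and 0.478 for all genes. Of the 4604 genes within the interquartile range of the members (0.643 to 0.818), 93.9% had a peak in both replicates. When members that form a divergent pair, or whose promoter windows are overlapped by the same peak, were counted once, 40 of 48 promoter units were open.

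The median promoter signal of the open members was 2.061 in replicate 1 and 1.537 in replicate 2 (1.8 ± 0.37, SD, n = 2), against 3.157 and 3.41 for all genes with a promoter peak. The median member stood at percentile 35.63 in replicate 1 and 24.97 in replicate 2. Above the median of all genes were 23 members in replicate 1 and 13 in replicate 2. Footprints within 250 bp of the start were fewer as well, with a median of 4 and 3 at open members against 6 and 5 at all open genes. Peaks, signal and footprints were taken over all annotated starts of a gene. Members had 71 start windows for 67 genes, against 54310 for 21842 genes in all. The values of all genes thus rest on more sequence per gene, and the part of this in the differences was not tested. Over the 56 open members, Spearman's rho of signal with the number of footprints was 0.59 in replicate 1 and 0.63 in replicate 2, a description in which both values come from the same cuts.

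**Figure D1:**
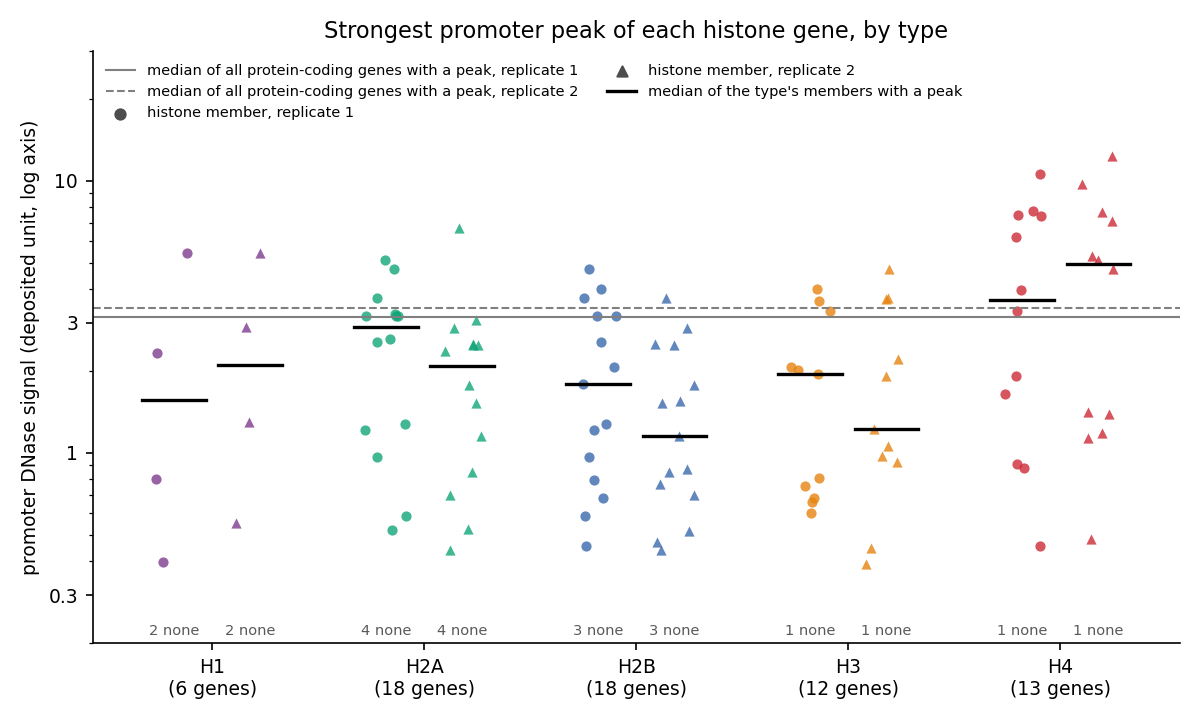
Promoter DNase signal of each histone gene by type, on a log axis, with replicate 1 as circles (left of each pair) and replicate 2 as triangles (right). Black bars are the medians of members with a peak, grey lines the medians of all protein-coding genes with a peak, and the count of members without a peak stands at the bottom. The H4 medians of 3.65 and 4.925 are the only ones above the grey lines, and the H4 genes span from 0.4568 to 12.27.

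The H4 genes, which encode a core histone that pairs with H3, had both the highest promoters and some of the lowest. A peak was present in both replicates at 12 of 13, with a median signal of 3.65 in replicate 1 and 4.925 in replicate 2. These medians stood at percentiles 55.75 and 66.21, and 7 H4 members in each replicate were above the median of all genes. Hist1h4c had the strongest promoter of all members, with 10.57 in replicate 1 and 12.27 in replicate 2, a mean percentile of 98.07. Its peak covered chr13:23698401-23698600 in both replicates and its centre lay at -47 bp from the start. Hist4h4, which stands alone on chromosome 6, had 7.391 and 9.738. Hist2h4 followed with 7.741 and 7.681, Hist1h4d with 7.452 and 7.122 and Hist1h4h with 6.223 and 5.104. The order of Hist4h4, Hist2h4 and Hist1h4d changed between replicates. Hist1h4i had 3.975 and 5.305.

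The weak H4 genes formed a separate range. Hist1h4f had 1.909 and 1.409, Hist1h4b 0.9137 and 1.392, and Hist1h4k 0.8832 and 1.18. Hist1h4j had 1.645 and 1.135, but that peak was centred at -783 bp from its start in replicate 1. Within 250 bp it had no peak in replicate 1 and one of 0.6149 in replicate 2. The lowest was Hist1h4m with 0.4568 and 0.4808, and Hist1h4n had no peak in either replicate.

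Among the 12 H4 genes that hold the site II core, the core lay in a footprint in both replicates at Hist1h4c, Hist4h4, Hist2h4, Hist1h4d, Hist1h4h and Hist1h4i, whose signals ran from 3.975 to 10.57 in replicate 1 and from 5.104 to 12.27 in replicate 2. It did not do so at the other 6, whose signals, where there was a peak, ran from 0.4568 to 1.909 and from 0.4808 to 1.409. At Hist1h4b and Hist1h4k a footprint overlapped the core in replicate 2 alone, and at Hist1h4f, Hist1h4j, Hist1h4m and Hist1h4n in neither. Grouped in this way by both replicates, the 2 ranges of signal did not overlap in either replicate. Grouped by the footprints of replicate 2 alone, they did overlap in that replicate. Hist1h4k (1.18) and Hist1h4b (1.392) had a footprint there, and Hist1h4f (1.409) had none. The lower range includes the Hist1h4j peak centred at -783 bp in replicate 1 and -773 bp in replicate 2, away from the core. Footprints are called from the same cuts as peaks, so fewer cuts leave fewer footprints to call, and the part of this in the split was not tested. The split also ran partly with the share of 32-mers within 250 bp of the start that occur once in the genome. This share was 67.2% (Hist1h4i) to 100% (Hist4h4) at the 6 footprinted genes. It was 46.4% at Hist1h4j, 42.4% at Hist1h4k, 6.4% at Hist1h4m and 4.6% at Hist1h4n. Hist1h4f had 75.8% and Hist1h4b 63.2%. The part of this share in the split was not tested. The core began between -77 and -46 from the start at 5 of the 6 footprinted genes and at -11 at Hist1h4h, and between -80 and -47 at the rest.

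At Hist1h4a, which had 3.325 and 4.746, both CRE matches lay in a footprint in both replicates. The E2F matches at -218 and -108 did so too, the one at -163 in replicate 1 alone and the one at -83 in neither. Among all members there were 5 CRE matches at open promoters, in Hist1h2ag, Hist1h2bj, Hist1h4h and Hist1h4a, where the match between Hist1h2ag and Hist1h2bj is 1 site counted from both starts. All 5 lay in a footprint in each replicate, against 86.2% and 82.9% of the CRE matches at all open promoters.

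The H2A and H2B genes encode the dimer on the outer faces of the nucleosome. A peak was present in both replicates at 14 of 18 H2A genes, with a median signal of 2.909 in replicate 1 and 2.077 in replicate 2. The H2B genes gave 15 of 18, with medians of 1.797 and 1.157. Both types share peaks through their pairs and are not independent of each other. The highest H2A promoter was that of Hist2h2aa2 with 5.127 and 6.708. The highest H2B promoter by mean percentile was that of Hist2h2bb with 4 and 3.712, and its peak at chr3:96269481-96269740 in replicate 1 was also the strongest within 1 kb of the H3 gene Hist2h3b.

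There were 13 divergent pairs, of which 12 joined an H2A and an H2B gene. Their start sites were 175 to 305 bases apart, with a median of 258.5. At 9 of the 12 pairs a single peak in each replicate was the strongest of both genes, and no peak was found at the other 3. Among the pairs, the shared peak of Hist1h2ag/Hist1h2bj was the highest in replicate 1, with 4.756 in replicate 1 and 2.885 in replicate 2. Hist1h2an/Hist1h2bp had 3.7 and 1.521, Hist2h2ac/Hist2h2be 3.193 and 2.488, and Hist1h2ac/Hist1h2bc 3.188 and 1.783. Hist1h2ah/Hist1h2bk was the most even, with 2.563 and 2.521. The pairs Hist1h2bf/Hist1h2ad (1.274 and 1.157), Hist1h2bl/Hist1h2ai (1.213 and 0.8497) and Hist1h2ae/Hist1h2bg (0.9645 and 0.6988) were lower. The lowest open pair was Hist1h2ak/Hist1h2bn with 0.5888 and 0.4416. All 9 open pairs were higher in replicate 1. The median log2 ratio of replicate 1 to replicate 2 over the 9 pairs was 0.46 (range 0.02 to 1.28), whereas it was -0.14 over the 12 open H4 genes and -0.10 over all genes with a peak in both replicates.

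Outside the pairs, the peak counted for Hist2h2ab was centred 1066 bp downstream, at the Hist2h2ac/Hist2h2be promoter. Within 250 bp of its own start it had 1.635 and 1.331. The lowest open H2A gene apart from Hist1h2ak was Hist1h2af, with 0.5228 and 0.5255, and it had no peak within 250 bp of its start. By mean percentile, the lowest open H2B gene was Hist3h2ba of the Hist3 cluster with 0.4568 and 0.5143, followed by Hist1h2bn. In replicate 2 alone, Hist1h2bn (0.4416) and Hist1h2bm (0.4696) were lower than Hist3h2ba. The unpaired H2B genes Hist1h2bb (0.7919 and 0.7715) and Hist1h2bm (0.6802 and 0.4696) were also weak, and the Hist1h2be peak of 1.797 and 1.554 was centred at -607 bp in replicate 1, with 1.203 and 0.8553 at the start. The other Hist3 gene, Hist3h2a, had 3.239 and 2.37, in a start region shared with the ubiquitin ligase gene Trim17. The H2B gene Hist1h2bh and the H3 gene Hist1h3f formed the only pair of another kind, 659 bases apart, and in replicate 1 their strongest peak was the same one of 2.061, past the start of Hist1h3f.

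**Figure D2:**
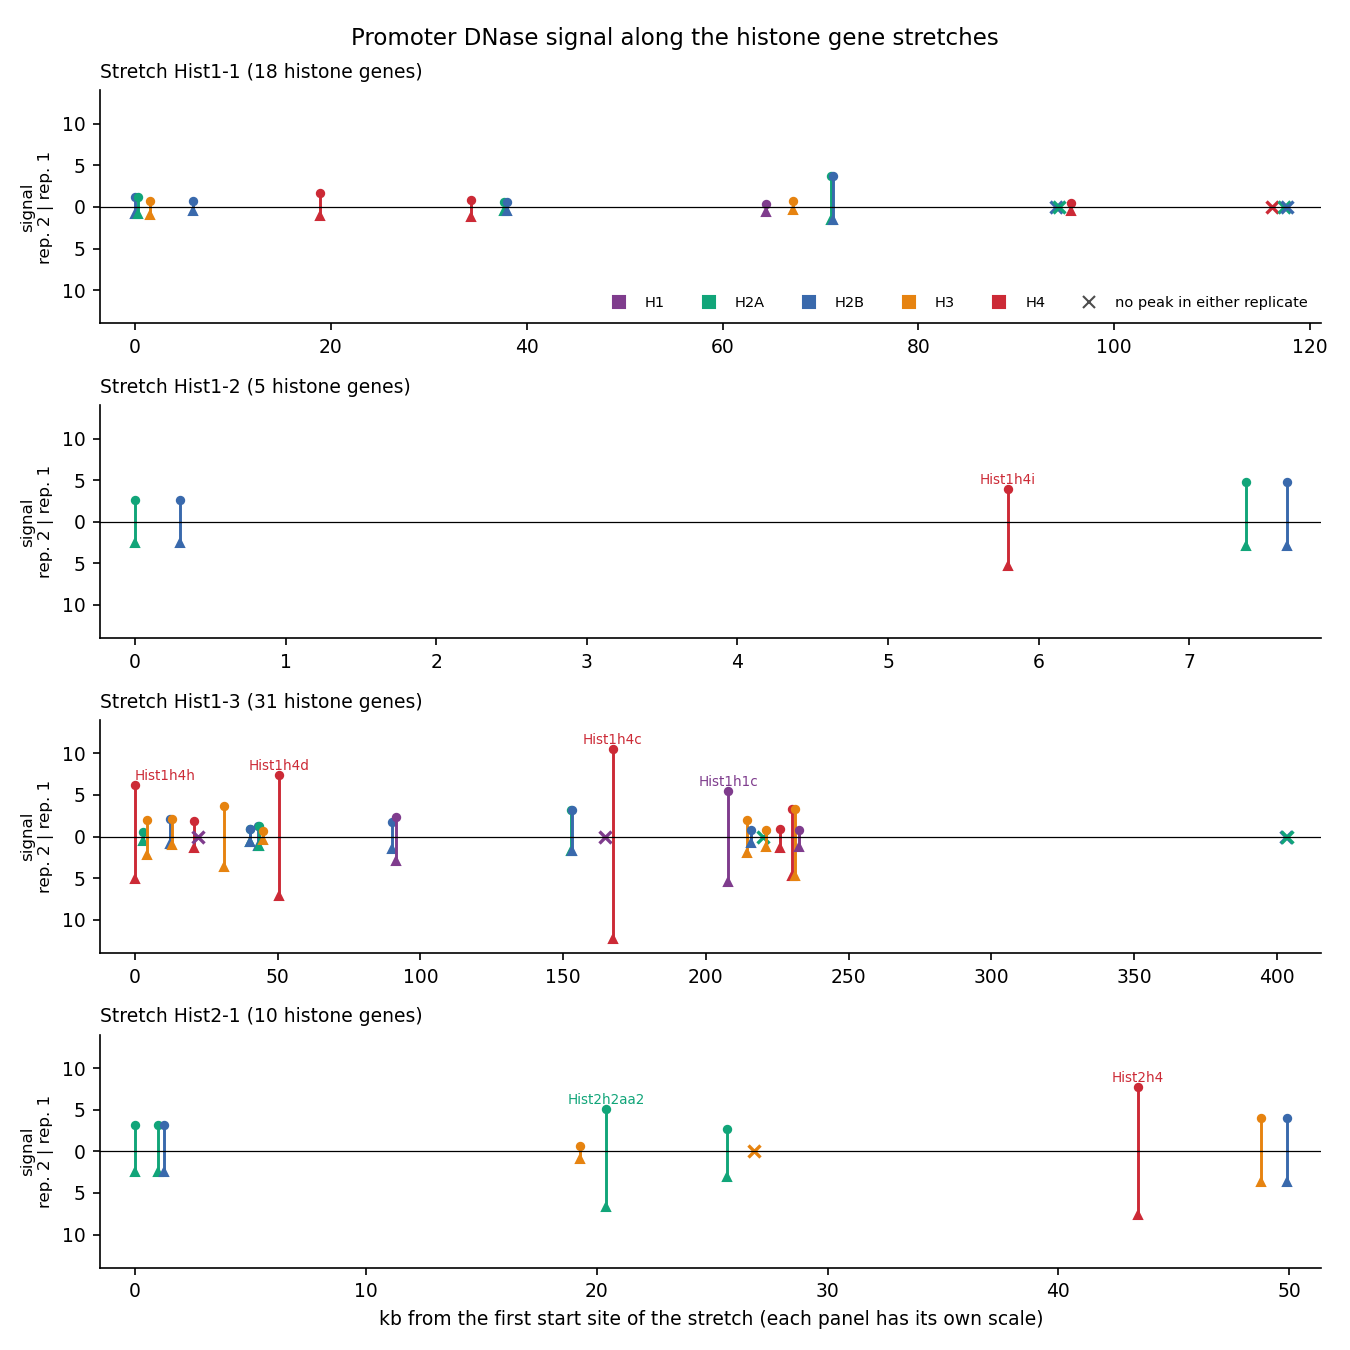
Promoter DNase signal at each histone gene along the 3 stretches of Hist1 and along Hist2, with replicate 1 above the line and replicate 2 below it, coloured by type. Crosses mark genes with no peak in either replicate and genes above 5 in either replicate are named. The first stretch of Hist1 is low throughout except for the pair at 3.7 in replicate 1 (1.521 in replicate 2), and the named peaks are mostly H4 genes.

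The H3 genes, whose product forms the central tetramer with H4, were open in both replicates at 11 of 12 members, with medians of 1.944 and 1.219. The highest values belonged to peaks at other genes: Hist1h3a was credited with the Hist1h4a peak (3.325 and 4.746), 975 bp from its own start in replicate 1, and Hist2h3b with the Hist2h2bb peak. The highest H3 promoter with a peak at its own start was Hist1h3e, with 3.624 and 3.684. Hist1h3g had 1.944 and 2.219 and Hist1h3c 2.015 and 1.923. Hist1h3b (0.8071 and 1.219) and Hist1h3h (0.7563 and 0.9727) had weak peaks at the start. The lowest by mean percentile were Hist1h3i with 0.6853 and 0.3913 and Hist1h3d with 0.6599 and 0.4472. Within 250 bp of the start, 8 of 12 H3 genes had a peak in both replicates, and in replicate 1 alone it was present at 3 further ones, Hist1h3i, Hist1h3f and Hist1h3a. The H3 median within 250 bp was 0.8071 in replicate 1 (11 genes) and 1.571 in replicate 2 (8 genes). Over all members, 51 of 67 (76.1%) had a peak in both replicates within 250 bp, against 59.2% of all genes.

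The H1 genes encode linker histones, which bind the DNA where it enters and leaves the nucleosome. Peaks in both replicates were present at 4 of 6, with medians of 1.566 and 2.105. Hist1h1c had 5.421 and 5.417, but this peak (chr13:23739641-23739920 in replicate 1) was centred 973 bp downstream of the start, inside the annotated gene. At the start itself its signals were 2.167 and 2.829. Hist1h1e, with 2.33 and 2.907, had its peak at the start, 7 bp downstream in replicate 1. Hist1h1a had 0.802 and 1.303, and Hist1h1b was lowest with 0.3959 and 0.5534. Hist1h1d was without a peak at its annotated start. Its RefSeq start lies 1770 bp away, at chr13:23555032, and peaks of 0.924 and 0.749 were present within 1 kb of it.

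**Figure D3:**
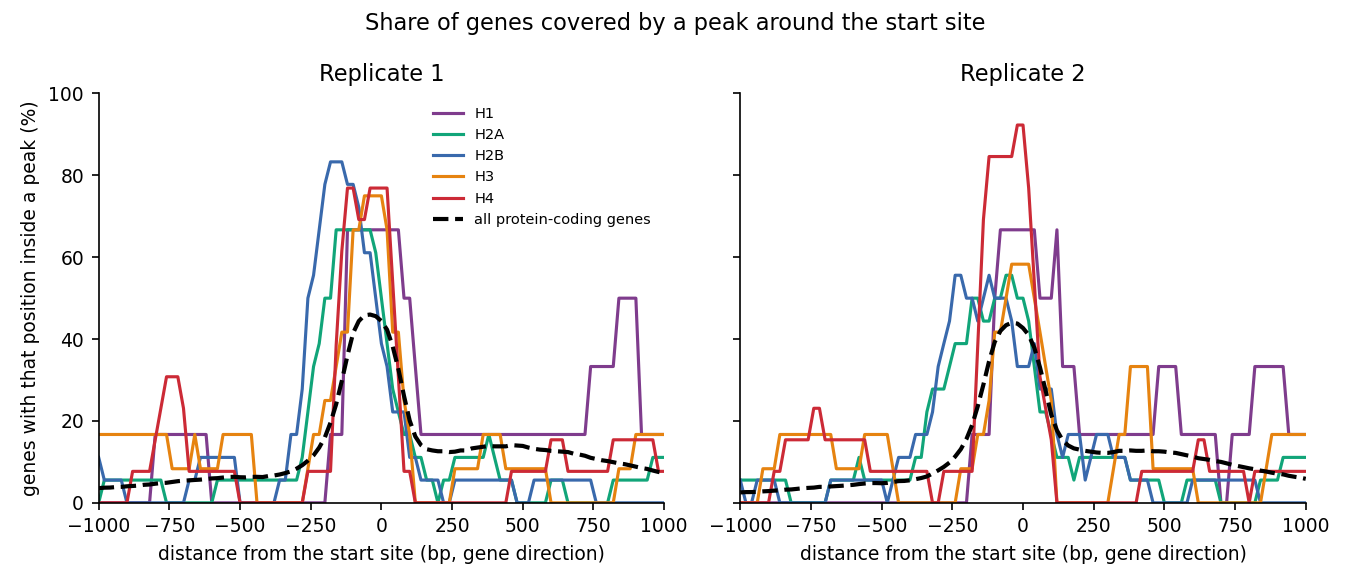
Share of genes whose sequence at a given distance from the start site lies inside a peak, by histone type (colours) and for all protein-coding genes (dashed), in replicate 1 (left) and replicate 2 (right). The H4 maximum was 76.9% in replicate 1 and 92.3% in replicate 2, against 46% and 44% for all genes. The H2B curve reached its maximum furthest upstream, at -180 bp in replicate 1 and -240 bp in replicate 2. The H2A curve did so at -160 bp in replicate 1 and at -60 bp in replicate 2, where H1 was at -80 bp.

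The position of the peak differed by type. Among members with a peak within 250 bp, peak centres of H2A genes had a median position of -104 bp from the start in replicate 1 and -87 bp in replicate 2, where a minus sign means upstream. Those of H2B genes were at -125 and -101 bp, which is between the starts of the pairs. For H4 the medians were -47 and -57 bp, where the site II core lies. For H3 they were -35 and -10 bp, and for H1 0 and 20 bp. With 4 H1 genes and pairs that share a peak, these medians are a description.

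The 11 members without a peak fell into groups that share a measurable property. Both pairs Hist1h2bq/Hist1h2ao and Hist1h2ap/Hist1h2br lie in a repeated block, where none (0%) of the 32-mers within 1 kb of the start occur once in the genome, and the median 32-mer within 250 bp of these starts occurs at 2 places. Hist1h4n had 4.2% unique 32-mers in the same window and Hist2h3c1 had 20.7%. A stretch of 32 bases that occurs more than once cannot be assigned to 1 copy, and longer stretches were not examined. How the authors treated reads with several matches is not given in the sources used here. The part of this in the missing peaks was not tested. The site II windows of Hist1h4n and Hist1h4m printed above are identical over 70 bases. Hist1h4m, in which 6.4% of the 32-mers within 250 bp are unique, had a peak of 0.4568 and 0.4808, of which 20% and 22.9% of the 32-mers were unique.

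A second group was unique in sequence. Hist1h1t, the testis H1, and the pair Hist1h2ba/Hist1h2aa, which encodes the testis-type H2B and H2A, had 100%, 95.8% and 98.6% unique 32-mers within 250 bp and no peak. These are the 3 members known as germ-cell histones, and 0 of 3 were open. The printed Hist1h1t promoter holds the same H1 box and CCAAT box as Hist1h1c and Hist1h1e. The remaining members without a peak were Hist1h1d, described above, and the H2A gene Hist1h2ab, with 68% unique 32-mers within 250 bp. Of the 54 members with at least 50% unique 32-mers within 250 bp, 49 were open in both replicates (90.7%), and of the other 13, 7 were open (53.8%).

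Low uniqueness did not coincide with low signal at every member. Hist2h2aa2, with 9% unique 32-mers, had the highest mean percentile of the members outside H4, with signals of 5.127 and 6.708, and its copy Hist2h2aa1, with 14.6%, had 2.629 and 3.08. Of the 32-mers in the Hist2h2aa2 peak, 20% were unique in replicate 1 and 17.8% in replicate 2, and how far reads of its copy enter this value was not tested. Hist2h3c2 had 0.599 and 0.9224 with 6.4% unique 32-mers, while its copy Hist2h3c1 had no peak with the same share.

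**Figure D4:**
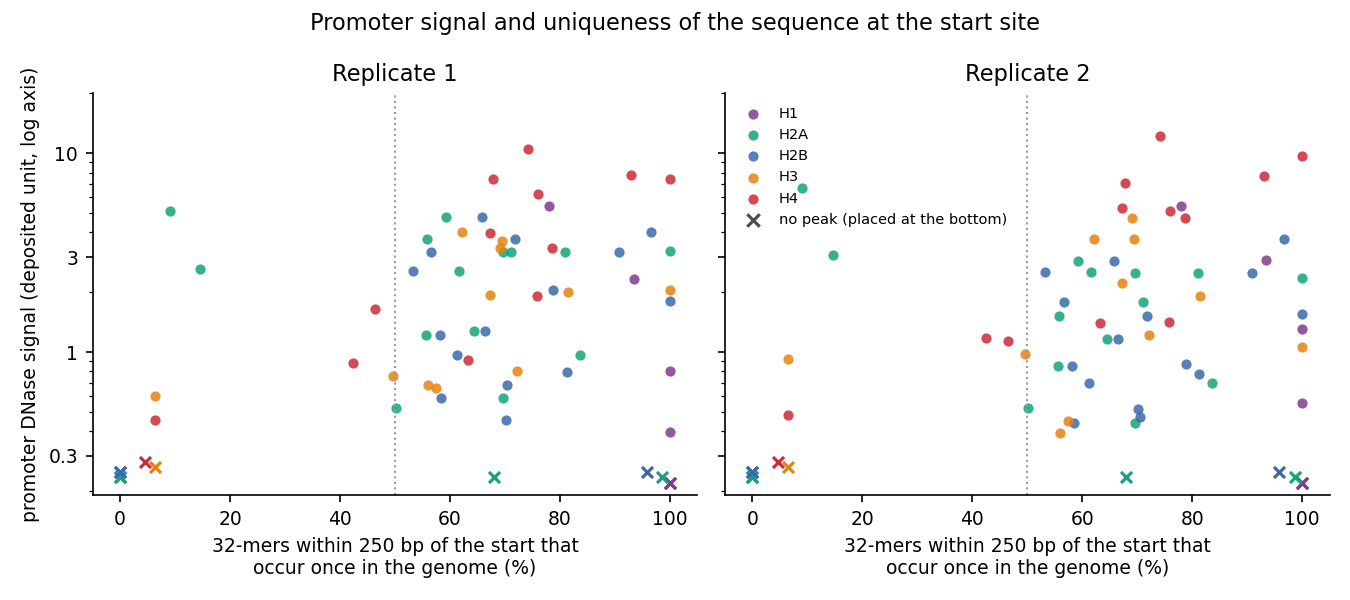
Promoter signal of each member (log axis) against the share of 32-mers within 250 bp of its start that occur once in the genome, coloured by type, with replicate 1 left and replicate 2 right. Crosses at the bottom are members without a peak, and the dotted line is at 50%. 6 of the 11 crosses lie below 10% and the other 5 at 68% or more.

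By location, the Hist1 cluster had 44 of 54 members open, Hist2 9 of 10, Hist3 2 of 2 and Hist4 1 of 1. Within Hist1, members less than 200 kb apart formed 3 stretches. The first stretch (chr13:21714763-21838530, including 1 kb on either side) held 18 members, 13 of them open, with a median signal of 0.7563 in replicate 1 and 0.8497 in replicate 2. The second held 5 members, all open, with medians of 3.975 and 2.885. The third (chr13:23530050-23935851) held 31 members, 26 open, with medians of 1.98 and 1.481. The open members of the first stretch had lower medians in both replicates than those of the others, and 5 of its 18 members lie in the repeated block and had no peak. Hist2 had medians of 3.193 and 3.08.

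Most peaks in these stretches lay at the histone starts. In the third stretch of Hist1, 37 of 58 peaks in replicate 1 and 38 of 51 in replicate 2 were within 1 kb of a member's start. The stretches had 1.21 to 4.11 peaks per 10 kb over both replicates, against 0.482 and 0.336 per 10 kb over the genome. The highest value was that of Hist4, with 1 member and 2 peaks in 4.863 kb. Because the stretches were drawn around start sites, a density above that of the genome was built in. The other 6 protein-coding genes inside the third stretch were mostly closed. Hfe, a regulator of iron uptake, had 0.9695 and 0.928, Slc17a1, a phosphate transporter of kidney and liver, had 0.2995 in replicate 1 alone, and Trim38, Slc17a2, Slc17a3 and Slc17a4 had no peak.

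**Figure D5:**
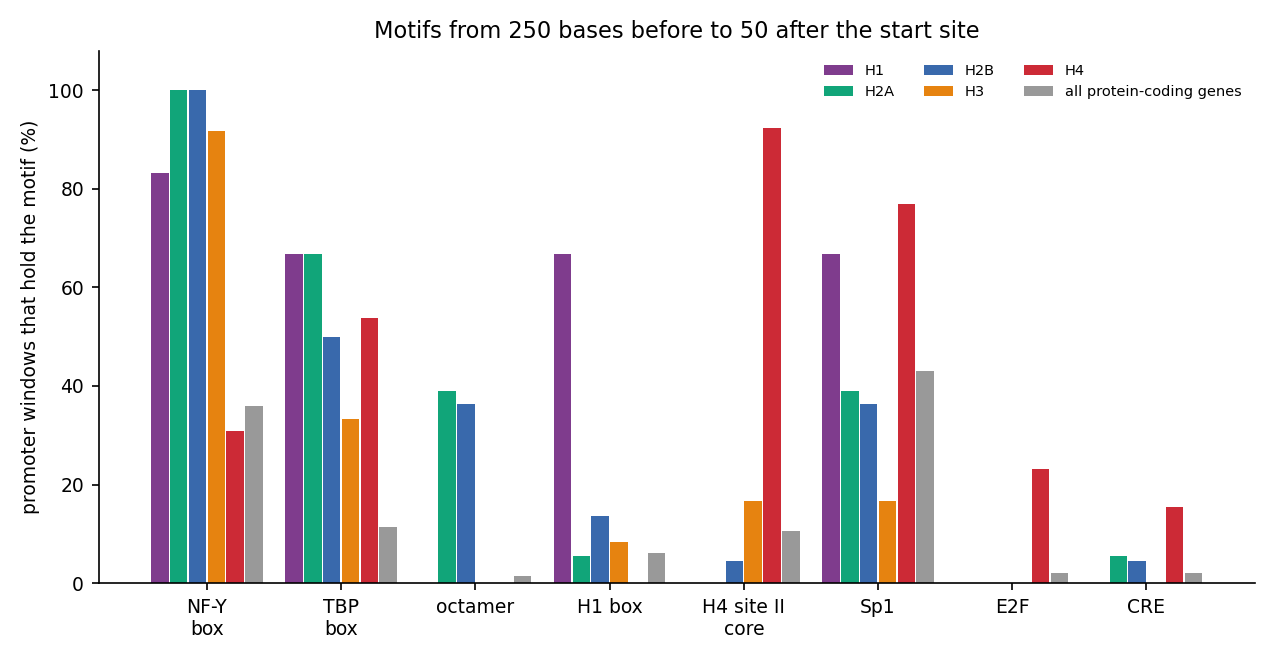
Share of promoter windows (250 bases before to 50 after the start) that hold each motif, by histone type and for all protein-coding genes (grey). NF-Y box stands for the CCAAT box and TBP box for the TATA box. The NF-Y box is at 83.3% or more in H1, H2A, H2B and H3 and at 30.8% in H4, and the site II core is at 92.3% in H4.

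The promoter motifs divided the members by type. CCAAT on either strand was present in 84.5% of the 71 member windows and 35.9% of the windows of all genes. It was found in 100% of H2A and H2B windows, 91.7% of H3 and 83.3% of H1, and in 30.8% of H4. TATAAA was present in 53.5% of member windows and 11.3% of all. The octamer ATTTGCAT was present in 38.9% of H2A and 36.4% of H2B windows and in 0% of the other types, against 1.53% of all. The H1 box AAACACA was present in 4 of 6 H1 windows (66.7%), against 6.21% of all windows. GGGCGG, bound by Sp1, was as frequent in members (43.7%) as in all windows (43.1%), and 76.9% of H4 windows held it. This near equality depended on the window. From 500 bases before to 100 after the start, the shares were 67.6% of member windows and 50.3% of all. With RefSeq starts they were 38.1% and 47.6%. The E2F motifs TTTGGCGC and TTTCCCGC were present in 3 windows (4.23%), all of H4, against 1.98% of all, and CACGTG in 0 of 71 windows, against 7.44% of all. Paired genes share part of their windows, and the motif overlaps of neighbouring members are therefore not independent.

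The share of CCAAT matches in a footprint differed between the replicates. Of 135 matches at open members, 39.3% lay in a footprint in replicate 1 and 19.3% in replicate 2, against 29.7% and 26.9% of matches at all open promoters. At H2B promoters these shares were 37.5% and 12.5%, and at H2A promoters 47.6% and 23.8%. A CCAAT site between paired starts is counted from both, as at Hist1h2ag/Hist1h2bj, so the H2A and H2B shares are not independent. Replicate 1 was also the replicate with the higher signal at all 9 open H2A/H2B pairs and with more footprints in all (339656, against 234091 in replicate 2). Of the site II matches in open H4 promoters, 54.5% lay in a footprint in replicate 1 and 72.7% in replicate 2, against 25.4% and 22.9% of the GGTCCG matches at all open promoters. Of 12 octamer matches at open members, 2 lay in a footprint in replicate 1 (16.7%) and 1 in replicate 2 (8.33%), against 16.1% and 8.87% at all open promoters. Those 2 are 1 site between Hist1h2ac and Hist1h2bc, counted from both starts.

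The listed genes that act on the histone genes, and those that replace or accompany their products, were all open. Of all genes, 62.4% had a peak in both replicates, and 93.9% of those in the CpG range of the members. The CpG content of the listed genes was not compared. Of the replacement histones, 11 of 11 had promoter peaks in both replicates, with medians of 5.421 in replicate 1 and 5.249 in replicate 2. H2afv, an H2A.Z gene, had 9.929 and 11.56, and H2afx, the H2A variant phosphorylated at DNA breaks, had 9.421 and 9.722. The lowest were H2afy2 with 0.5482 and 0.6485 and H1fx with 0.6396 and 0.8162. Of 20 regulators and 3' end processing factors, 20 were open, with medians of 5.896 and 6.275. The highest were Nfya, a subunit of the CCAAT-binding factor NF-Y, with 11.33 and 13.13, and Casp8ap2, a component of the histone locus body, with 9.482 and 11.49. Npat had 9.081 and 10.77, Hinfp 8.025 and 8.218, and Slbp 5.355 and 6.317. Gon4l was the lowest of this list, with 0.6142 and 0.4193. All 25 genes of replication and S phase were open as well, with medians of 5.472 and 5.758. Gins2 had 10.59 and 12, and Mcm5 10.64 and 11.63, both subunits of the replicative helicase complex. Tyms was the lowest of them, with 1.239 and 1.331. The medians of these 3 lists lay above that of all open genes, and that of the histone members lay below it, in both replicates.

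The replicates gave a similar order of histone promoters. Over the 40 open units, Pearson's r of the log2 signals was 0.94 and Spearman's rho 0.93, a description over units that share the same 2 libraries. Over the 13625 genes with a peak in both replicates, both values were higher, at 0.98. By type, Spearman's rho was lowest over the 14 H2A members, at 0.76, with no value for H1. Relative to the median of all genes, the log2 ratio of replicate 1 to replicate 2 had a median of 0.49 over 14 H2A members and 0.51 over 15 H2B members. It was 0.08 over 11 H3, -0.04 over 12 H4 and -0.30 over 4 H1 members. The order of the H2A and H1 medians differed between replicates (2.909 and 1.566 in replicate 1, 2.077 and 2.105 in replicate 2), so these types were not separated beyond the spread. H4 had the highest median of the 5 types in both.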

How the data were processed

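DNase-seq was done on gastrocnemius of 2 samples in 1 group. The authors deposited, per sample on mm10, a larger and a smaller peak list whose signal (column 7) has no stated scale, and cut-rate sites with a false discovery rate (a q-value, listed under 0.05 by the authors) and footprints with a constant p-value column. The aligner, the callers and the treatment of reads with several matches are not given in the sources used here. Signal and footprints were joined to GENCODE M21 start sites of protein-coding transcripts with Python 3.11.15, numpy 2.4.6 and pandas 2.3.3. The functions were tested on simulated data. Percentiles are among genes with a promoter peak in the same replicate. Uniqueness is the share of 32-mers with 1 occurrence in the genome on either strand. Sequences and motifs come from GRCm38.p6, and RefSeq starts (RefSeq, GRCm38.p6) matched 62 of 67 members, all but Hist1h3f, Hist1h2bc, Hist1h3a, Hist2h2be and Hist2h4. Members and lists were chosen with earlier results of these data known. Named genes were, per type, the 2 highest and 2 lowest by mean percentile, those without a peak, all of Hist3 and Hist4, and the top 2 of each list, and others named were chosen after their values were seen. Alternatives varied the window, the peak list, the start sites, the overlap and the replicates.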

Additional observations from a re-analysis of the deposited data

How the results depend on the processing

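The count of open members (56 of 67) was 45 to 61 under the alternatives run over all members, with the lowest for the better 50% of peaks and the highest for a window of 2500 bp, and was 56 without either replicate. Open promoter units (40) ranged from 31 to 44. The median signal of open members (1.8) was 2.26 with the smaller peak list and 2.47 with the better 50% of peaks, both of which drop weak peaks, and ranged from 1.54 to 2.06 when 1 replicate was left out. With the smaller list, 1 of 2 Hist3 members and 8 of 18 members of the first Hist1 stretch (13 in the larger list) were open. In windows from 500 bases before to 100 after the start, E2F motifs were in 5 windows, Sp1 in 48 and CACGTG in 1, against 3, 31 and 0, and with RefSeq starts E2F was in 1. Of 73 values, 65 stayed within the spread or within 1.5 times. The window of 250 bp, the count of open members at RefSeq starts (52 of 62 matched) and the uniqueness limit of 50% were chosen after seeing the data. Footprints per unit were 3.5, and 3 to 4 with 1 replicate left out. No paired analysis was possible because there is 1 group only. Depth limits weak peaks, and absence of a peak is not absence of accessibility.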

Other observations

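The share of bases within 1 kb of the start that the cut-rate lists include had a median of 24.3% at open members in both replicates, against 36.2% and 31.8% at all open genes. Footprints covered 22.4% of the bases of the open H4 promoter windows in replicate 1 and 21.4% in replicate 2, and 10.4% and 8.3% of those of open H3. The windows of all genes with a promoter peak in both replicates gave 15.2% and 13.9%. Hist1h2be has a second RefSeq start at chr13:23585970, 35124 bp from its annotated start, and peaks of 1.58 and 1.43 were present within 1 kb of it. The promoter windows that gave no peak but have at least 68% unique 32-mers within 250 bp (Hist1h1d, Hist1h1t, Hist1h2ba, Hist1h2aa and Hist1h2ab) also held 0% of bases in the cut-rate lists in both replicates.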
